A study of Mus musculus with 6 samples.

Results

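The genes described here are 34 genes of the pathway controlled by sterol regulatory element-binding proteins (SREBPs), out of 30445 genes in the count table. They were taken by symbol and fall by role into 18 sterol enzyme genes, 6 regulator genes and 10 fatty-acid genes. Stard4, which encodes a sterol carrier protein, is counted with the regulator genes. All 34 had a row in the table, and all 34 passed the filter on low counts that left 18613 genes for testing. RNA was sequenced from wild-type mouse cells in 3 groups, with 2 libraries each: MEF, embryonic fibroblasts; MCC, labelled a myeloid-like cell complex; and iMac, labelled induced macrophages. The series title names the transcription factor c-Myc as enough to turn fibroblasts into macrophages, so the comparisons follow cholesterol and fatty-acid synthesis genes over that change of cell identity. The labels do not say how the MCC and iMac cells were made, how old the embryos were or which strain they came from, and nothing says that the 2 libraries of a group came from separate cultures. The p-values therefore measure the spread between these libraries, which may be technical.

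SREBPs are transcription factors that are made as precursors in the membrane of the endoplasmic reticulum. When that membrane is poor in sterols, Scap escorts the precursor to the Golgi, where proteases release the active fragment, which enters the nucleus and turns on genes for lipid synthesis. When sterols are plentiful, Insig proteins hold Scap in the endoplasmic reticulum. The product of Srebf2 is known mainly for driving cholesterol synthesis and uptake, and that of Srebf1 for driving fatty-acid synthesis. Macrophages take up lipid from the cells and lipoproteins they engulf, and in them liver X receptors, activated by oxysterols, work alongside SREBPs.

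Of the 34 members, 27 had an entry in the RefSeq promoter table for the mouse build GRCm38.p6, with windows from 250 bases before a transcription start to 50 after it. These windows were searched on both strands for the core of the sterol regulatory element (TCACNCCAC), the CCAAT box (CCAAT), the GC box (GGGCGG) and the E-box (CACGTG) that Myc and SREBPs are known to bind. No motif contains another, though matches may overlap. The 200 bases before the start of 4 members are shown, 5′ to 3′ on the strand of the gene, with every match to a motif in capitals. Hmgcs1 (chr13:119690151-119690350, plus strand) is shown because it held the sole match to the sterol regulatory element among the members. Sc5d (chr9:42264301-42264500, minus strand) is a sterol gene with an E-box, Ebp (chrX:8193513-8193712, minus strand) was the sole member that rose, and Fasn (chr11:120824548-120824747, minus strand) stands for the fatty-acid branch.
Hmgcs1: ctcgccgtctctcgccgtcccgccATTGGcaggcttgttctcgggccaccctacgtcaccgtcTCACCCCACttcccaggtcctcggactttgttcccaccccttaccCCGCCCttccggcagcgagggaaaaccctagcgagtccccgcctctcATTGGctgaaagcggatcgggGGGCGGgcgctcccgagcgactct
Sc5d: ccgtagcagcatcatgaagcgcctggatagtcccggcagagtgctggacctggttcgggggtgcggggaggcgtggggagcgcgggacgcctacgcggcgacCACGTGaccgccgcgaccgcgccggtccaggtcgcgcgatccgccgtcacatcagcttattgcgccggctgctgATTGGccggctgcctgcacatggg
Ebp: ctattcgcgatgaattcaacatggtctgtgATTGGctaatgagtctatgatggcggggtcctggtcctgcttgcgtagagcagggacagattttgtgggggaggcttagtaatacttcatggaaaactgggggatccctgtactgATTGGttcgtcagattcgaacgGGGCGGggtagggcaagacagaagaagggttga
Fasn: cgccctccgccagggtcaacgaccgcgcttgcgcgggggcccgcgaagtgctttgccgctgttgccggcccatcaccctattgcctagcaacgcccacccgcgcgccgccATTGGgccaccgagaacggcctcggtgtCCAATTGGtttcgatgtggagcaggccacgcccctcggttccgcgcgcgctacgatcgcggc

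The match in Hmgcs1 began 137 bases before the start, between CCAAT boxes at 176 and 45 bases. Such distances depend on the start used. In GENCODE M21, Hmgcs1 begins at base 119690379 and Sc5d, on the minus strand, at base 42264256, both downstream of the starts used here. The sterol regulatory element string was held by 1 of 27 members, compared with 1.44% of the 27025 genes in the table. CCAAT boxes were held by 22 of 27 members (81.5%), in 14 of 15 sterol enzyme genes, 4 of 5 regulator genes and 4 of 7 fatty-acid genes, compared with 41.1% of all genes with a promoter and 42.4% of those tested. GC boxes were held by 14 of 15 sterol enzyme genes, 5 of 5 regulator genes and 3 of 7 fatty-acid genes, compared with 65.1% of tested genes. E-boxes were held by 6 of 27 members (Dhcr7, Elovl5, Hsd17b7, Insig1, Sc5d and Scap), 22.2%, compared with 11.0% of tested genes. These matches describe the letters in the windows and no more.

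Library totals ranged from 34389817 to 39174367 counts. Levels are given as CPM, the count divided by the scaled library total and multiplied by 1e6. The summed level of 8 macrophage markers was 5.72 and 8.66 CPM in the MEF libraries, 12252 and 11863 in those of MCC and 22255 and 18589 in those of iMac. Lyz2 weighed most in the higher iMac sum, with means of 6149 CPM in MCC and 13397 in iMac. Of the 8 markers, 2 had lower means in iMac than in MCC, Mrc1 (2105 and 1362 CPM in MCC and iMac) and Fcgr1 (225 and 217). That of 8 fibroblast markers was 19648 and 8299 in the MEF libraries, 859 and 72.0 in those of MCC and 12.3 and 9.29 in those of iMac. The MEF libraries stood apart from each other: 8 adipocyte markers summed to 9.30 CPM in library 1, with 1 marker at 0, and to 43.8 in library 2, with none at 0, and 10 cell-cycle genes summed to 689 and 1299. Adipocyte markers summed to between 0.687 and 1.82 in the MCC and iMac libraries, where 1 to 4 of the 8 were at 0. Cell-cycle genes summed to 2045 and 1975 in MCC and to 1193 and 1282 in iMac. Markers of hepatocytes (at most 0.985 CPM), neutrophils (at most 1.27), keratinocytes and epithelium (at most 6.16), dendritic cells (at most 10.4) and endothelium (at most 12.9) were low in every library. Myc itself was at 70.7 and 63.1 CPM in MEF, at 823 and 1164 in MCC and at 1022 and 1060 in iMac.

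Most members stepped down from MEF to MCC and again to iMac. For 24 of 34 members both MEF libraries lay above both MCC libraries, which lay above both iMac libraries. That order, with no overlap between neighbouring groups, held for 12.8% of all genes tested. It was met by 14 of 18 sterol enzyme genes, 4 of 6 regulator genes and 6 of 10 fatty-acid genes. The exceptions were Pmvk, Mvd, Ebp, Dhcr7, Insig2, Stard4, Acly, Scd1, Scd2 and Elovl5. MEF library 2 was above MEF library 1 for 32 of 34 members, with Insig2 and Me1 the exceptions, while 49.9% of all genes tested had that order. The rise between the MEF libraries had a median of 1.45-fold for sterol enzyme genes, 1.51-fold for regulator genes and 1.45-fold for fatty-acid genes, and of 1-fold for all genes tested. It was at least 1.5-fold for 14 of 34 members, against 18.6% of all genes. MCC library 2 was above MCC library 1 for 27 of 34 members (47.9% of all genes) and iMac library 2 above iMac library 1 for 20 of 34 (45.9%). The adipocyte and cell-cycle sums were also higher in MEF library 2 than in MEF library 1, and their part in the MEF difference was not tested. In MCC both sums were lower in library 2 than in library 1. Both MCC and both iMac libraries lay below even the lower MEF library 1 for 28 of 34 members, which was so for 43.5% of all genes. In these bulk libraries, fewer cells of a type and less RNA per cell cannot be told apart.

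**Figure D1:**
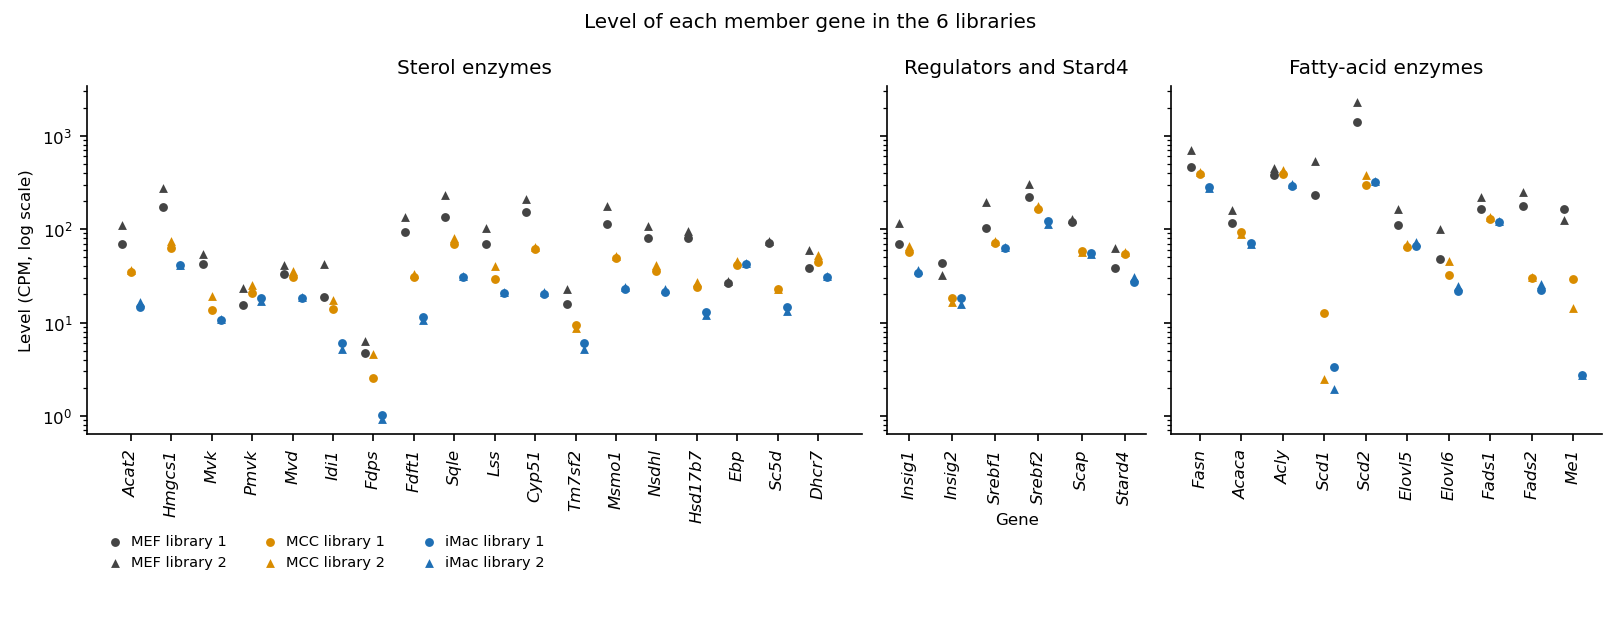
Level of each of the 34 genes in each of the 6 libraries, in CPM on a log axis, with genes grouped by role; each point is 1 library. Most genes step down from MEF to MCC to iMac, Ebp is the gene that is higher in all MCC and iMac libraries, and Scd1 spans the widest range, from 536 CPM in MEF library 2 to 1.96 in iMac library 2.

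In MCC compared with MEF, 12 of 18 sterol enzyme genes fell, 1 rose and 5 did not pass the test (edgeR's quasi-likelihood test, adjusted p below 0.05 over all genes). Of all genes tested, 29.6% fell and 23.4% rose, 53.0% in all. All 12 that fell did so by at least 2-fold, which 23.1% of all genes did. The median log2 change was -1.31 over the 18 genes and -0.05 over all genes tested. In iMac compared with MEF, 15 of the 18 fell, 1 rose and 2 did not pass, against 32.4% lower and 25.1% higher among all genes, 57.6% in all. The median was -2.41, against -0.06 for all genes. These comparisons share the MEF libraries. Counting only libraries that did not overlap, 28 of the 34 members were lower in MCC than in MEF and 32 in iMac, against 42.4% and 43.5% of all genes.

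The first steps, from acetyl-CoA to the isoprenoid units, were carried by Acat2, Hmgcs1, Mvk, Pmvk, Mvd, Idi1 and Fdps. Acat2, the cytosolic thiolase that joins acetyl-CoA units, was at 70.1 and 111 CPM in MEF, at 34.9 and 36.4 in MCC and at 14.7 and 16.7 in iMac. Hmgcs1, which makes HMG-CoA, was at 172 and 277 CPM in MEF, at 62.5 and 74.3 in MCC and at 40.8 and 40.9 in iMac. Mvk, the mevalonate kinase, was at 42.8 and 54.6 CPM in MEF, at 13.8 and 19.3 in MCC and at 10.6 and 10.9 in iMac. The groups did not overlap in any of the 3 genes. Log2 changes in MCC were -1.35 (SE 0.24, adjusted p = 0.00917) for Acat2, -1.72 (SE 0.25, adjusted p = 0.00518) for Hmgcs1 and -1.56 (SE 0.22, adjusted p = 0.00506) for Mvk. In iMac they were -2.53 (SE 0.25), -2.46 (SE 0.25) and -2.18 (SE 0.23), with adjusted p = 0.00155, 0.00177 and 0.00181.

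The next steps of the mevalonate pathway did not pass the test in MCC. Pmvk, the phosphomevalonate kinase, was at 15.5 and 23.6 CPM in MEF, at 20.7 and 25.2 in MCC and at 18.1 and 17.1 in iMac. Its groups overlapped, and neither contrast with MEF passed (adjusted p = 0.455 and 0.621), though without MEF library 2 it was called higher in MCC (0.62, adjusted p = 0.0467). Mvd, the decarboxylase that follows, was at 33.3 and 41.0 CPM in MEF, at 30.8 and 36.0 in MCC and at 18.2 and 18.6 in iMac. It did not pass in MCC (log2 change -0.15, SE 0.15, adjusted p = 0.441) and fell in iMac (-1.01, SE 0.16, adjusted p = 0.00535), by 2.02-fold. Without iMac library 1 the adjusted p of that fall was 0.0507.

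Idi1 and Fdps, which convert the isoprenoid units into farnesyl diphosphate, passed against MEF in iMac and not in MCC. Idi1, the isomerase, was at 18.6 and 42.1 CPM in MEF, at 14.0 and 17.4 in MCC and at 6.03 and 5.16 in iMac. Its MEF libraries differed by 2.27-fold, and its log2 change was -0.95 (SE 0.41, adjusted p = 0.103) in MCC and -2.44 (SE 0.43, adjusted p = 0.00755) in iMac. The value in MCC ran from -1.42 without MEF library 1 (adjusted p = 0.0142) to -0.19 without MEF library 2, and DESeq2 called it (adjusted p = 0.0466). Fdps, the farnesyl diphosphate synthase, was the lowest member per length in every group, at 4.72 and 6.36 CPM in MEF, at 2.57 and 4.57 in MCC and at 1.02 and 0.935 in iMac. Its log2 change was -0.63 (SE 0.37, adjusted p = 0.201) in MCC and -2.50 (SE 0.40, adjusted p = 0.00571) in iMac. Both falls in iMac missed the threshold without iMac library 2 (adjusted p = 0.0606 for Idi1 and 0.0503 for Fdps), and that of Idi1 also without iMac library 1 (adjusted p = 0.0524). Fdps shares 86.4% of its 50-base stretches with transcripts of other genes, mainly Gm43738 and Gm3571, so its count depends on how shared reads were assigned and its level is uncertain.

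Among the steps committed to sterols, Fdft1 held the largest fall of the branch in both contrasts with MEF. It encodes the squalene synthase and was at 92.2 and 136 CPM in MEF, at 30.8 and 33.2 in MCC and at 11.3 and 10.7 in iMac. Sqle, the squalene epoxidase, was at 134 and 231 CPM in MEF, at 68.6 and 79.8 in MCC and at 30.8 and 31.7 in iMac. Lss, which closes the ring to lanosterol, was at 69.5 and 104 CPM in MEF, at 29.2 and 40.5 in MCC and at 20.6 and 21.2 in iMac. Each group lay wholly below the one before it. Fdft1 fell 3.57-fold in MCC (log2 change -1.83, SE 0.21, adjusted p = 0.00272) and 10.4-fold in iMac (-3.37, SE 0.22, adjusted p = 0.000549). Sqle fell in MCC (log2 change -1.30, SE 0.27, adjusted p = 0.014) and in iMac (-2.55, SE 0.28, adjusted p = 0.0021). Lss fell in MCC (log2 change -1.32, SE 0.25, adjusted p = 0.0116) and in iMac (-2.05, SE 0.26, adjusted p = 0.00308). Fdft1 shares 18.3% of its exonic bases with Ctsb on the other strand, a lysosomal protease gene at 832 and 807 CPM in MEF, at 6391 and 6498 in MCC and at 12488 and 11336 in iMac. The labels do not say whether the counting used strand.

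The genes that remove methyl groups from lanosterol fell in both contrasts. Cyp51, the lanosterol demethylase, was at 153 and 211 CPM in MEF, at 61.5 and 65.0 in MCC and at 20.4 and 21.0 in iMac. Msmo1, a methyl sterol oxidase, was at 114 and 176 CPM in MEF, at 49.0 and 51.0 in MCC and at 23.1 and 23.8 in iMac. Both stepped down with no overlap, to log2 changes in iMac of -3.13 (SE 0.18, adjusted p = 0.000405) for Cyp51 and -2.63 (SE 0.22, adjusted p = 0.00108) for Msmo1. In MCC the changes were -1.52 (SE 0.17, adjusted p = 0.00268) and -1.54 (SE 0.21, adjusted p = 0.00487). Nsdhl, a sterol dehydrogenase of the demethylation complex, was at 81.2 and 107 CPM in MEF, at 35.2 and 41.3 in MCC and at 21.1 and 23.0 in iMac. Hsd17b7, its partner ketosteroid reductase, was at 81.2 and 95.8 CPM in MEF, at 23.9 and 26.9 in MCC and at 13.0 and 12.0 in iMac. Tm7sf2, a sterol reductase, was at 15.97 and 22.9 CPM in MEF, at 9.47 and 8.64 in MCC and at 6.09 and 5.19 in iMac. All 3 fell in both contrasts, with log2 changes in MCC of -1.30 (SE 0.17) for Nsdhl, -1.80 (SE 0.14) for Hsd17b7 and -1.10 (SE 0.24) for Tm7sf2, and in iMac of -2.09 (SE 0.18), -2.82 (SE 0.14) and -1.78 (SE 0.24). Adjusted p-values were at most 0.0156. The fall of Tm7sf2 in MCC missed the threshold without MEF library 2 (adjusted p = 0.0679) and without MCC library 2 (adjusted p = 0.07).

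The last steps to cholesterol did not move together. Sc5d, the sterol desaturase, was at 71.5 and 74.1 CPM in MEF, at 22.8 and 22.7 in MCC and at 14.6 and 13.2 in iMac, with close agreement within each group. It fell in MCC (log2 change -1.68, SE 0.11, adjusted p = 0.000684) and in iMac (-2.39, SE 0.11, adjusted p = 0.000227). Ebp, the sterol isomerase that acts just before Sc5d, was at 26.8 and 27.6 CPM in MEF, at 41.6 and 45.1 in MCC and at 42.2 and 43.5 in iMac. All 4 MCC and iMac libraries lay above both MEF libraries. Ebp rose in MCC (log2 change 0.67, SE 0.10, adjusted p = 0.00611) and in iMac (0.65, SE 0.10, adjusted p = 0.00549), and was the sole member to rise in either contrast. Without iMac library 2 the iMac value was 0.65 with adjusted p = 0.0539. Dhcr7, which reduces the last precursor to cholesterol on one route, was at 38.5 and 59.2 CPM in MEF, at 44.7 and 53.5 in MCC and at 30.9 and 31.2 in iMac. Its MCC libraries lay between the MEF libraries (log2 change 0.01, SE 0.23, adjusted p = 0.98), and the sign of that change flips to -0.06 with median-ratio scaling. Its iMac libraries lay below both MEF libraries without passing (-0.65, SE 0.23, adjusted p = 0.0584). That fall passed with median-ratio scaling (adjusted p = 0.0398), DESeq2 (adjusted p = 0.0108), the replicate block (adjusted p = 0.0467) and without MEF library 1 (-0.92, adjusted p = 0.0120).

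**Figure D2:**
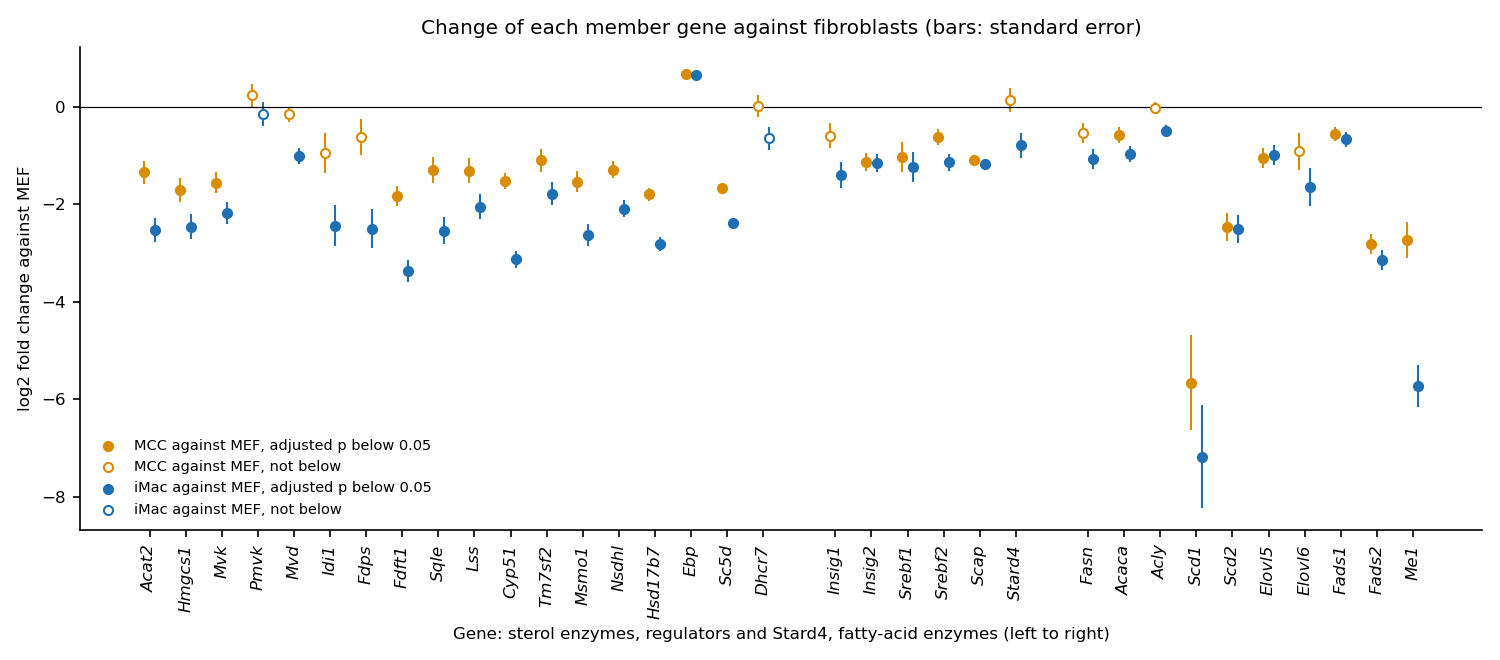
Log2 change of each of the 34 genes in MCC and in iMac, each against MEF, with bars of 1 standard error; filled points passed the test (adjusted p below 0.05) and open points did not. The iMac change lies below the MCC change for every gene except Elovl5; Ebp is the one point above 0 that passed, and Scd1 and Me1 reach the lowest values in iMac, -7.18 and -5.73.

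Among the 6 regulator genes, 4 fell in MCC and all 6 fell in iMac, with none higher, against 29.6% and 32.4% of all genes lower. Median log2 changes were -0.83 and -1.17. Srebf2, the factor for sterol genes, was at 221 and 304 CPM in MEF, at 163 and 178 in MCC and at 123 and 115 in iMac. Srebf1, the factor for fatty-acid genes, was at 103 and 195 CPM in MEF, at 70.4 and 75.5 in MCC and at 62.9 and 63.7 in iMac. Each stepped down without overlap. Srebf2 fell in MCC (log2 change -0.63, SE 0.17, adjusted p = 0.0307) and in iMac (-1.14, SE 0.17, adjusted p = 0.00497), and Srebf1 fell in MCC (-1.03, SE 0.30, adjusted p = 0.0368) and in iMac (-1.24, SE 0.30, adjusted p = 0.0199). Symbol-level counts do not separate the transcripts of Srebf1 that differ in their first exon. The ratio of Srebf2 to Srebf1 levels was between 1.56 and 2.35 in the 6 libraries, and the lowest value was that of MEF library 2.

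Scap, the escort of SREBP precursors, was at 120 and 128 CPM in MEF, at 58.5 and 57.4 in MCC and at 55.4 and 53.9 in iMac. It fell by similar amounts in both contrasts, with log2 changes of -1.10 (SE 0.08, adjusted p = 0.00107) and -1.19 (SE 0.08, adjusted p = 0.000704). Insig2, a retention factor known as less dependent on SREBP, was at 43.3 and 32.5 CPM in MEF, at 18.1 and 16.5 in MCC and at 18.1 and 15.7 in iMac. Insig2 fell in MCC (log2 change -1.13, SE 0.19, adjusted p = 0.00767) and in iMac (-1.16, SE 0.19, adjusted p = 0.00595), and its MCC and iMac libraries overlapped. Insig1, a retention factor that is itself an SREBP target, was at 69.2 and 116 CPM in MEF, at 56.6 and 66.0 in MCC and at 34.2 and 36.1 in iMac. Its change did not pass in MCC (-0.60, SE 0.26, adjusted p = 0.105) and was -1.40 (SE 0.26, adjusted p = 0.00914) in iMac. The value in MCC was -0.92 without MEF library 1 (adjusted p = 0.0112) and -0.12 without MEF library 2, and it passed with DESeq2 (adjusted p = 0.0367). Counts of Insig1 exceeded those of Insig2 by 1.60 and 3.58 times in the MEF libraries, 3.13 and 3.995 in those of MCC and 1.89 and 2.30 in those of iMac, so the MEF libraries spanned most of the range. Stard4, a sterol carrier protein and SREBP target, was at 38.1 and 62.8 CPM in MEF, at 54.3 and 56.3 in MCC and at 27.2 and 30.8 in iMac. It did not pass in MCC (0.13, SE 0.25, adjusted p = 0.67) and fell in iMac (-0.80, SE 0.25, adjusted p = 0.0422). The fall was lost in 6 of 14 alternatives: without either MCC library, without either iMac library, with library totals and with the groups compared alone (adjusted p = 0.0507 to 0.192). Without MEF library 2, Stard4 was called higher in MCC (0.59, adjusted p = 0.0273).

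The count of regulator genes depended on single libraries. In MCC, 2 of the 4 calls (Srebf1 and Srebf2) were lost when either MCC library or either iMac library was left out, and Srebf2 was also lost without MEF library 2, where its change was -0.32 (adjusted p = 0.0535). In iMac, 3 regulator genes were called without iMac library 1 and 2 without iMac library 2, against 13.4% of all genes called lower in each, and 5 were called without either MCC library.

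Of the 10 fatty-acid genes, 7 fell in MCC and 3 did not pass, and all 10 fell in iMac, against 29.6% and 32.4% of all genes. At least 2-fold falls were seen in 5 genes in MCC and 6 in iMac, against 23.1% and 26.2% of all genes tested. Median log2 changes were -0.99 in MCC and -1.36 in iMac. Without iMac library 1 or without iMac library 2, 4 of the 10 were still called in iMac (Scd1, Scd2, Fads2 and Me1), against 13.4% of all genes called lower.

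The enzymes that build the carbon chain showed small differences in MCC. Acly, which makes cytosolic acetyl-CoA from citrate, was at 382 and 455 CPM in MEF, at 394 and 425 in MCC and at 289 and 305 in iMac. Acaca, the acetyl-CoA carboxylase, was at 116 and 159 CPM in MEF, at 93.7 and 89.3 in MCC and at 70.8 and 68.7 in iMac. Fasn, the fatty-acid synthase, was at 462 and 703 CPM in MEF, at 392 and 406 in MCC and at 280 and 276 in iMac. The MCC libraries of Acly lay between its MEF libraries, and those of Acaca and Fasn lay below. In MCC the log2 change was -0.03 (SE 0.12, adjusted p = 0.845) for Acly, -0.59 (SE 0.16, adjusted p = 0.0315) for Acaca and -0.55 (SE 0.21, adjusted p = 0.0769) for Fasn. Fasn in MCC was -0.81 without MEF library 1 (adjusted p = 0.00471) and -0.16 without MEF library 2, and it passed with DESeq2 (adjusted p = 0.00976). The small value for Acly flips sign to 0.02 with library totals without scaling, and Acaca missed the threshold without MEF library 2 (adjusted p = 0.108) and without either MCC or either iMac library. In iMac all 3 fell, with log2 changes of -0.50 (SE 0.12, adjusted p = 0.0207), -0.98 (SE 0.16, adjusted p = 0.00653) and -1.07 (SE 0.21, adjusted p = 0.0105). Acaca shares 52.6% of its 50-base stretches with Gm5182, which had at most 83 counts in a library.

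Me1, the malic enzyme that supplies NADPH for chain building, was the exception among the supply genes. It was at 163 and 127 CPM in MEF, at 29.4 and 14.2 in MCC and at 2.75 and 2.71 in iMac. Each group lay far below the one before, and the log2 change was -2.73 (SE 0.37, adjusted p = 0.00463) in MCC and -5.73 (SE 0.44, adjusted p = 0.000814) in iMac, a fall of 53.1-fold. Me1 was also among the 2 members that were lower in MEF library 2 than in library 1. MCC library 1, with the higher fibroblast marker sum (859 CPM against 72.0), had the higher Me1 level of the MCC libraries, and the part of the markers in it was not tested.

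Of all members, Scd1 held the largest fall in both contrasts with MEF. Scd1, a stearoyl-CoA desaturase that makes monounsaturated fatty acids, was at 234 and 536 CPM in MEF, at 12.7 and 2.51 in MCC and at 3.34 and 1.96 in iMac. Scd2, its neighbour on chromosome 19 and the main form in many mouse tissues outside the liver, was at 1399 and 2309 CPM in MEF, at 294 and 376 in MCC and at 321 and 329 in iMac. Scd1 fell 50.6-fold in MCC (log2 change -5.66, SE 0.97, adjusted p = 0.00854) and 145-fold in iMac (-7.18, SE 1.05, adjusted p = 0.00462). With 1 library left out, the log2 change of Scd1 ran from -7.24 to -4.80 in MCC and from -7.65 to -6.48 in iMac, so its fold is uncertain. Scd2 fell 5.53-fold in MCC (-2.47, SE 0.28, adjusted p = 0.00287) and 5.71-fold in iMac (-2.51, SE 0.28, adjusted p = 0.00225). Scd2 counts were 5.99 and 4.31 times those of Scd1 in MEF, 23.2 and 149.5 times in MCC, and 95.9 and 168 times in iMac. Scd1 was 2.29-fold higher in the MEF library with the higher adipocyte marker sum, and higher in the MCC library with the higher fibroblast marker sum; the part of those markers was not tested. In iMac the 8 adipocyte markers summed to 0.687 and 0.784 CPM, with 4 of 8 at 0.

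Fads2, which starts the desaturation of polyunsaturated fatty acids, was at 176 and 249 CPM in MEF, at 29.6 and 30.7 in MCC and at 22.2 and 26.1 in iMac. Fads1, a later desaturase of the same route, encoded on the other strand of chromosome 19 with a start 81.1 kb away, was at 166 and 219 CPM in MEF, at 127 and 134 in MCC and at 119 and 122 in iMac. Both stepped down without overlap, and to different depths. Fads2 fell 7.06-fold in MCC (log2 change -2.82, SE 0.20, adjusted p = 0.000913) and 8.81-fold in iMac (-3.14, SE 0.20, adjusted p = 0.000557). Fads1 fell in MCC (log2 change -0.56, SE 0.15, adjusted p = 0.0289) and in iMac (-0.67, SE 0.15, adjusted p = 0.0149). The ratio of Fads1 to Fads2 counts was 0.940 and 0.877 in the MEF libraries, 4.29 and 4.38 in those of MCC and 5.38 and 4.67 in those of iMac. The MEF ratios lay below all 4 others. The fall of Fads1 in MCC missed the threshold without either MCC library or either iMac library (adjusted p = 0.0767 to 0.1251).

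The changes of the elongases were the middle values of the branch in MCC, so the branch median there is set by them. Elovl5, which lengthens polyunsaturated chains, was at 112 and 166 CPM in MEF, at 64.8 and 68.6 in MCC and at 65.3 and 73.6 in iMac. It fell in MCC (log2 change -1.06, SE 0.20, adjusted p = 0.0117) and in iMac (-0.9996, SE 0.20, adjusted p = 0.0117), and its MCC and iMac libraries overlapped. Elovl6, which lengthens palmitate, was at 48.0 and 99.5 CPM in MEF, at 32.3 and 45.9 in MCC and at 22.01 and 24.8 in iMac. Its MEF libraries differed by 2.07-fold, and its change was -0.92 (SE 0.38, adjusted p = 0.0948) in MCC and -1.65 (SE 0.39, adjusted p = 0.0174) in iMac. The value in MCC was -1.34 without MEF library 1 (adjusted p = 0.0209) and -0.25 without MEF library 2, and it passed with DESeq2 (adjusted p = 0.0305) and with the replicate block (adjusted p = 0.0446).

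Per length of exonic sequence, the most abundant members were fatty-acid genes, though not all of that branch ranked high. Acaca was at rank 31 and Elovl6 at rank 25 of 34 in MEF. Scd2 was first in MEF at 339 ± 118 CPM per kb (SD, n = 2), followed by Acly at 79.3 ± 9.78, Scd1 at 78.7 ± 43.7 and Fads2 at 64.6 ± 15.7, of which the last 3 did not differ beyond their spread. Hmgcs1, sixth at 48.9 ± 16.1 CPM per kb, was the highest sterol gene in MEF. In iMac, Scd2 at 59.4 ± 1.04 CPM per kb and Acly at 56.2 ± 2.11 led, followed by Fasn at 25.4 ± 0.252, Fads1 at 25.1 ± 0.374 and Elovl5 at 19.7 ± 1.67. The highest sterol gene there was Ebp, at 18.5 ± 0.411 CPM per kb, which moved from rank 24 of 34 in MEF to rank 8 in MCC and 6 in iMac. Scd1 went from rank 3 to rank 33 in both MCC and iMac, and Me1 from rank 10 to 25 and 32. The desaturases Scd1 and Scd2 held 50.1% and 56.7% of the summed CPM of the fatty-acid genes in the MEF libraries, 20.9% and 23.8% in those of MCC and 27.1% and 26.9% in those of iMac. Fasn and Acly held 25.9% and 23.1% in the MEF libraries, 53.5% and 52.2% in those of MCC and 47.6% and 47.2% in those of iMac.

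Between iMac and MCC, no member passed in the fit over all 6 libraries, where 2 genes of 18613 fell and 2 rose (0.0107% each, 0.0215% together). At an unadjusted p below 0.05, 21 members were lower in iMac and 0 higher (10.5% and 7.69% of all genes), of which 16 were sterol enzyme genes, 3 regulator genes and 2 fatty-acid genes. DESeq2 called 17 members, all lower: 12 sterol enzyme genes, 3 regulator genes and 2 fatty-acid genes, where 7.82% of all genes were called lower. Limma-voom called 1 (Cyp51), with 0.242% of all genes called lower, and an edgeR fit of the MCC and iMac libraries alone called 19, all lower, with 4.24% of all genes called lower. Both iMac libraries lay below both MCC libraries for 29 of 34 members, against 27.9% of all genes tested, and for 17 of 18 sterol enzyme genes, 5 of 6 regulator genes and 7 of 10 fatty-acid genes. The 5 that overlapped were Ebp, Insig2, Scd1, Scd2 and Elovl5.

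The values closest to the threshold in that contrast were those of Cyp51 (log2 change -1.61, SE 0.17, adjusted p = 0.0756), Fdft1 (-1.54, SE 0.21, adjusted p = 0.0839), Hsd17b7 (-1.02, SE 0.14, adjusted p = 0.0839) and Me1 (-3.00, SE 0.39, adjusted p = 0.0839). Without MCC library 2 these 4 and Sc5d were called lower, in a fit in which calls over all genes went from 4 to 1202, 1136 of them lower (5.71%) and 66 higher. Values near 0 were seen for Ebp (-0.02, SE 0.10), Insig2 (-0.03, SE 0.19), Scd2 (-0.04, SE 0.27), Elovl5 (0.06, SE 0.20), Scap (-0.08, SE 0.08) and Fads1 (-0.12, SE 0.15). The direction for Ebp, Insig2, Scd2 and Elovl5 flips when 1 library is left out, and that for Elovl5 also with library totals without scaling (-0.08). Scd1 had a larger value, -1.52 (SE 0.86), and its direction flips as well, to 0.05 without MCC library 1. Stard4, the sterol carrier counted with the regulator genes, had the largest difference of that list, at -0.93 (SE 0.25, adjusted p = 0.191). Cell-cycle genes and fibroblast markers were also lower in iMac than in MCC, with median log2 changes of -0.76 and -4.91, though none passed. The part of either list in these differences was not tested.

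The sterol and fatty-acid branches were set side by side by the median of their genes. As a share of each gene's MEF mean, the sterol median was 81.5% and 118% in the MEF libraries, 37.5% and 43.8% in MCC, and 19.9% and 18.3% in iMac. The fatty-acid median was 81.7% and 118% in the MEF libraries, 45.2% and 55.8% in those of MCC and 38.4% and 40.5% in those of iMac. In iMac the sterol median thus stood at a lower share of MEF level than the fatty-acid median in both libraries. This order depends on the summary used. The upper quartile of the log2 changes against MEF kept it, at -0.71 (sterol) and -0.56 (fatty-acid) in MCC and -1.85 and -0.98 in iMac. The lower quartile reversed it, at -1.55 and -2.67 in MCC and -2.54 and -2.98 in iMac. The sterol median minus the fatty-acid median of the log2 changes was -0.32 in MCC and -1.05 in iMac against MEF, and -0.40 between iMac and MCC. The same difference computed within each library, on log2 levels centred on each gene's mean over the 6 libraries, was 0.56 and 0.27 in the MEF libraries, 0.15 and 0.23 in those of MCC and -0.36 and -0.48 in those of iMac. The 3 groups did not overlap in it. These are descriptions of the members with no test, since the members were chosen with results known.

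The branch medians cover a wide range of values. In iMac against MEF, fatty-acid changes ran from -7.18 (Scd1) to -0.50 (Acly), and sterol changes from -3.37 (Fdft1) to 0.65 (Ebp). The summed level of the sterol enzyme genes was 1236 and 1800 CPM in the MEF libraries, 596 and 681 in those of MCC and 343 and 347 in those of iMac. That of the fatty-acid genes was 3258 and 5023 CPM in the MEF libraries, 1470 and 1592 in those of MCC and 1195 and 1229 in those of iMac. In both branches most of the difference in these sums lay between MEF and MCC, and the iMac sums were also below those of MCC. Leaving out the second MEF library gave sterol, regulator and fatty-acid medians of -0.94, -0.38 and -0.49 in MCC and of -2.06, -0.96 and -0.91 in iMac. There, 20 members were called lower in MCC and 31 in iMac, against 18.2% and 24.8% of all genes. Leaving out the first MEF library instead gave medians of -1.60, -0.91 and -1.32 in MCC and of -2.55, -1.29 and -1.70 in iMac, with 27 and 32 members called lower, against 19.7% and 24.6% of all genes.

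**Figure D3:**
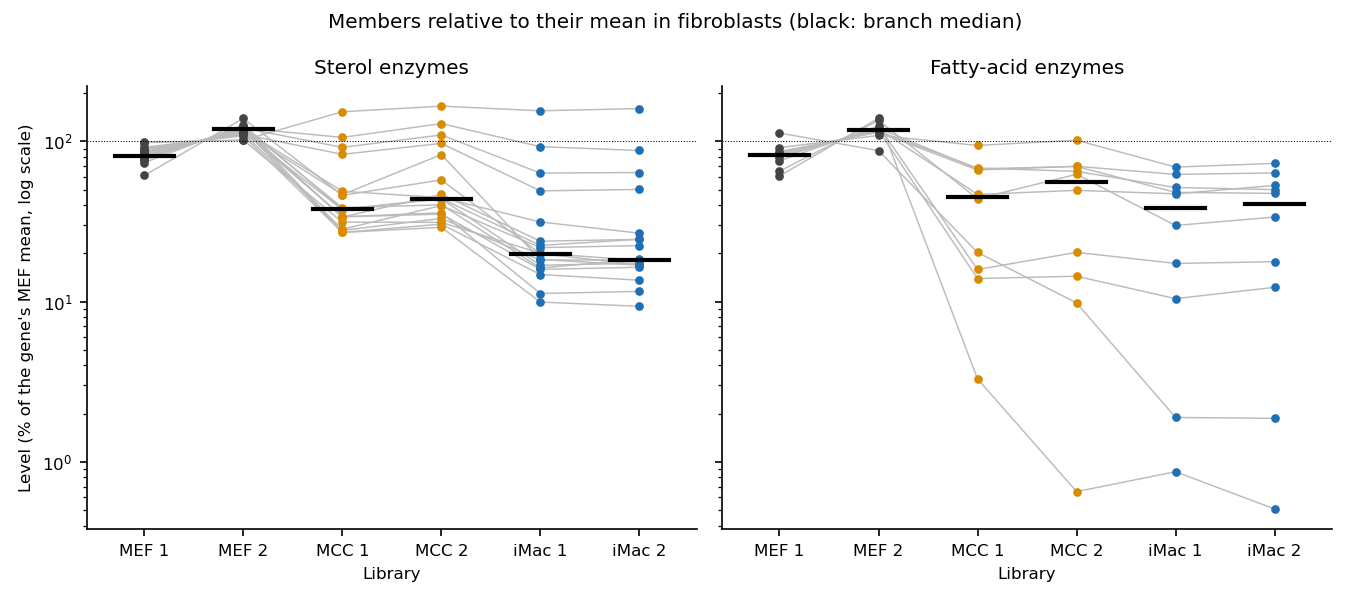
Level of each member in each library as a percentage of its mean in MEF on a log axis, in panels for sterol enzyme genes and fatty-acid genes; each point is a gene in 1 library, grey lines join the points of a gene with no order among the libraries of a group, and black bars are the median of the panel. The sterol median drops to 19.9% and 18.3% in the iMac libraries, and the fatty-acid median to 38.4% and 40.5%, with Scd1 and Me1 far below the other fatty-acid genes.

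Genes around the pathway were counted in the same way. Over all genes tested, 29.6% were lower and 23.4% higher in MCC, and 32.4% lower and 25.1% higher in iMac. Of 8 tested genes for SREBP processing and sterol sensing, 2 rose and 5 fell in both MCC and iMac. The falls were led by Sec23a, a coat subunit of vesicles that leave the endoplasmic reticulum (log2 change -2.17, SE 0.26, adjusted p = 0.00328 in MCC, and -2.41, SE 0.26, adjusted p = 0.00209 in iMac), and its partner Sec24d (-1.64, SE 0.22, adjusted p = 0.00412, and -1.74, SE 0.22, adjusted p = 0.00296). The proteases that cut SREBPs went opposite ways. Mbtps1, which makes the first cut, fell from a mean of 255 CPM in MEF to 123 in MCC (-1.05, SE 0.09, adjusted p = 0.00146), and Mbtps2, which makes the following one, rose from 31.5 to 64.7 CPM in iMac (1.04, SE 0.09, adjusted p = 0.00114).

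Of 14 genes on the branches off the mevalonate pathway, for protein prenylation, dolichol and ubiquinone, 5 rose and 3 fell in MCC and 5 rose and 5 fell in iMac, with medians of 0.25 and 0.33, and the 3 and 5 of 14 lower lay near the 29.6% and 32.4% of all genes. Icmt, which methylates prenylated proteins, fell in MCC (log2 change -1.06, SE 0.22, adjusted p = 0.0145) and in iMac (-1.20, SE 0.22, adjusted p = 0.00862). In MCC, Rabggta, a subunit of the enzyme that prenylates Rab proteins, and Pdss1, for the ubiquinone side chain, each rose with a log2 change of 0.83 (SE 0.12 and 0.23, adjusted p = 0.00524 and 0.032). In iMac, Ggps1, which makes geranylgeranyl diphosphate, fell (log2 change -0.80, SE 0.21, adjusted p = 0.0269), and Dhdds, of dolichol synthesis, rose (0.78, SE 0.11, adjusted p = 0.00405).

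Of 16 tested genes for fatty-acid supply, activation and lipid assembly, 2 rose and 6 fell in MCC, and 3 rose and 7 fell in iMac, against 29.6% and 32.4% of all genes lower. Acss2, the cytosolic acetyl-CoA synthetase, fell in MCC (log2 change -1.88, SE 0.34, adjusted p = 0.00983) and in iMac (-1.33, SE 0.33, adjusted p = 0.0219). Acsl5, an acyl-CoA synthetase, rose in MCC (log2 change 1.56, SE 0.17, adjusted p = 0.00235) and in iMac (1.17, SE 0.16, adjusted p = 0.00411). Lpin1, a phosphatidate phosphatase, fell in MCC (log2 change -1.40, SE 0.27, adjusted p = 0.0112), and Acsl3, another acyl-CoA synthetase, fell in iMac (-1.20, SE 0.34, adjusted p = 0.0323).

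Of 12 genes for fatty-acid oxidation, 3 rose and 2 fell in MCC, and 7 rose and none fell in iMac. The 3 of 12 higher in MCC lay near the 23.4% of all genes, and 25.1% of all genes were higher in iMac. Acadm, the medium-chain dehydrogenase, rose in MCC (log2 change 0.78, SE 0.13, adjusted p = 0.00866) and in iMac (1.10, SE 0.14, adjusted p = 0.00288), and Acaa2, the mitochondrial thiolase, rose likewise (0.49, SE 0.10, adjusted p = 0.0153, and 0.93, SE 0.10, adjusted p = 0.00225). Hadha, of the trifunctional protein, rose in iMac (log2 change 0.76, SE 0.10, adjusted p = 0.00355), and Slc25a20, the carnitine carrier, fell in MCC (log2 change -0.51, SE 0.11, adjusted p = 0.016). The median was 0.04 in MCC and 0.37 in iMac.

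Of 10 genes for oxysterol receptors and sterol storage, 6 rose in MCC and 8 in iMac, with none called lower, against 23.4% and 25.1% of all genes higher. Ch25h, at means of 3.35 CPM in MEF, 0.98 in MCC and 0.65 in iMac, went the other way without passing. Its log2 changes were -1.77 in MCC and -2.37 in iMac, the only negative ones of the list. Lipa, the lysosomal acid lipase that frees cholesterol from engulfed esters, went from 79.6 CPM in MEF to 504 in MCC and 753 in iMac (log2 changes 2.66, SE 0.20, adjusted p = 0.00103, and 3.24, SE 0.21, adjusted p = 0.000512). Soat1, which esterifies cholesterol for storage, went from 101 CPM to 369 and 462 (1.88, SE 0.13, adjusted p = 0.000762, and 2.20, SE 0.13, adjusted p = 0.000404). Nr1h3, a liver X receptor, went from 3.56 CPM to 21.1 and 15.9 (2.56, SE 0.52, adjusted p = 0.0136, and 2.16, SE 0.52, adjusted p = 0.0187). These genes rose while the macrophage markers rose, and the part of cell identity in them was not tested. Between iMac and MCC none of the genes in these 5 lists passed. At an unadjusted p below 0.05, 6 of 12 oxidation genes and 6 of 10 storage genes were higher, against 7.69% of all genes tested.

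**Figure D4:**
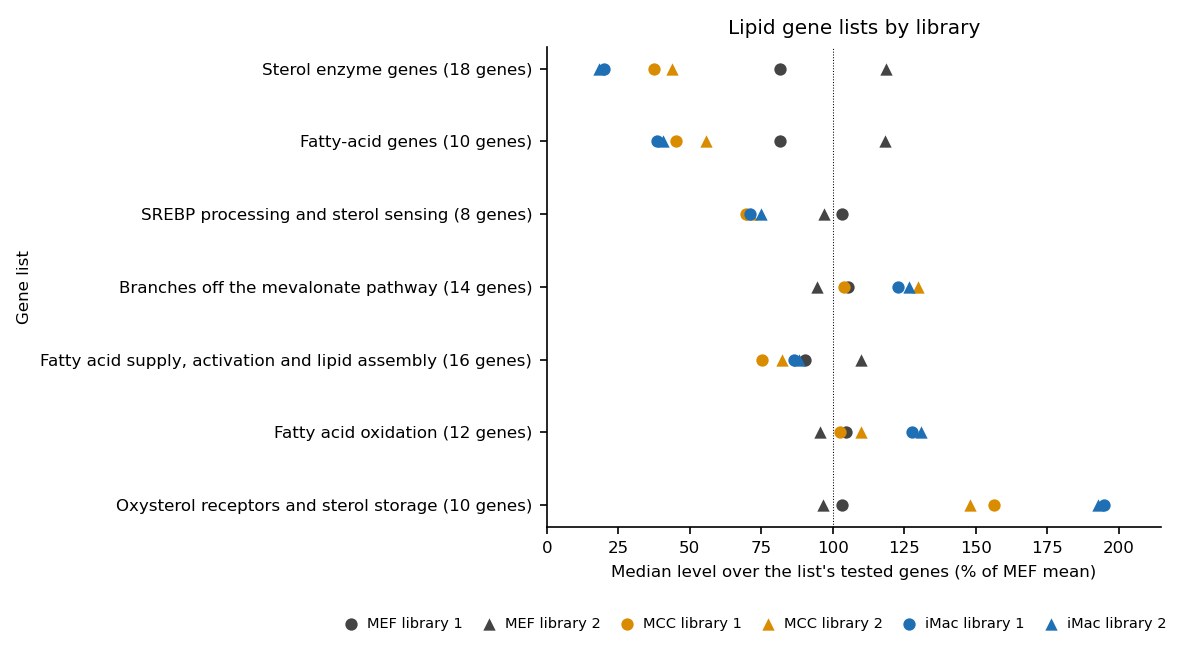
Median level in each library, as a percentage of each gene's MEF mean, over the tested genes of the sterol, fatty-acid and 5 neighbouring gene lists; each point is 1 library. The sterol and fatty-acid medians are at most 55.8% in the MCC and iMac libraries, the mevalonate-branch and oxidation medians are at least 103% there, and the storage median reaches 195% and 193% in iMac.

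Several members share sequence with other genes, which makes their counts uncertain where reads could be split. Besides Fdps, Acaca and Fdft1, 45.9% of the 50-base stretches of Acat2 also occur in Acat3, and 13.2% in Tcp1. The share was 32.8% for Me1, in transcripts such as Gm7049, 30.5% for Idi1, in others such as Gm13502, and 13.6% for Hmgcs1, in Gm48342. Acat3, Gm7049, Gm13502 and Gm48342 had between 0 and 195 counts in each library, and the level of Tcp1 was not examined. Tm7sf2 shares 12.1% of its exonic bases with Vps51, which was at 24.3 and 25.1 CPM in MEF and at 53.6 and 55.6 in iMac. Scd1 and Scd2, which lie 87.6 kb apart, share 4.66% and 4.01% of their stretches with other genes, their own family included.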

How the data were processed

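RNA was sequenced in 6 mouse libraries, and the authors deposited whole-number read counts per gene, made with STAR and featureCounts on mm10, per the submitters' processing notes. The sources used here do not give tool versions, gene annotation, strand setting or the treatment of reads with several matches. Trizol RNA and an mRNA library kit were used, per the labels' protocols.

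The test of the counts used edgeR 4.0.16 under R 4.3.3 (filterByExpr filter, TMM scaling, two-sided quasi-likelihood test, group as the only term, all 6 libraries, 3 residual degrees of freedom). Benjamini-Hochberg adjustment ran over the 18613 genes tested, and the threshold was 0.05. Fold changes use a prior count of 0.125, and their standard error (SE) comes from the F statistic. CPM are counts over the TMM-scaled library total. CPM per kb uses the exonic length in GENCODE M21, in which 29529 of 30445 symbols were found. With 34389817 to 39174367 counts a library, the libraries of a group differed by more than counting error (95% Poisson interval) for 32 of 34 members in MEF, 24 in MCC and 9 in iMac. Counting error is therefore not small beside the spread within iMac.

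Members and lists were chosen with earlier results of these data known, so no list was tested. All members were named, with Myc, and of each neighbouring list the 3 called genes with the largest change and a group mean of 5 CPM or more. Genes that went against their list or carried much of its sum were named where that limits the reading. Alternatives were other scalings, DESeq2 1.42.0, limma-voom (limma 3.58.1), other filters, a replicate block, the groups compared alone, and each library left out. The method was tested on simulated data with 2 libraries a group and far fewer changed genes than in the real contrasts, which makes the adjustment stricter: of genes set 4-fold apart, 22.4% were recovered in a run like MCC against MEF (18056 genes) and 27.1% in one like iMac against MEF (18005 genes), and of those set 2-fold apart 0% in both.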

Additional observations from a re-analysis of the deposited data

How the results depend on the processing

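The counts of called sterol enzyme genes in MCC and iMac against MEF stayed within 1.5 times the reported ones under every alternative run. The 7 fatty-acid calls in MCC against MEF became 5 with library totals without scaling, 5 with only the groups compared and 9 with DESeq2. Over all genes, 5171, 3930 and 6038 were called lower in those fits, against 5506 in the reported one. Regulator calls in MCC against MEF dropped from 4 to 2 with library totals without scaling (chosen after seeing the data) and to 2 with only the groups compared, and ranged from 2 to 5 with 1 library left out. In iMac against MEF, leaving out 1 library gave 5173 to 10695 calls over all genes, 2 to 6 regulator and 4 to 10 fatty-acid calls. In iMac against MCC, calls over all genes went from 4 to 2572 with DESeq2, 146 with limma-voom, 89 with no filter on low counts and 1364 with only the groups compared, and from 0 to 1202 with 1 library left out. Sterol calls there were 12, 1, 1 and 12 in the same order and 0 to 4 with 1 library left out, regulator calls were 3 with DESeq2 and 3 with only the groups compared, and fatty-acid calls were 2 with DESeq2, 1 with no filter, 4 with only the groups compared and 0 to 1 with 1 library left out. The cause was not tested.

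Signs flipped for values near 0, and for Scd1 in iMac against MCC, whose reported change was -1.52 (SE 0.86). In MCC against MEF, Dhcr7 was -0.060 with median-ratio size factors, -0.061 with DESeq2 and -0.26 to 0.40 with 1 library left out. Acly was 0.017 with library totals, 0.0046 with the stricter filter, 0.080 with only the groups compared and -0.14 to 0.15 with 1 library left out. With 1 library left out, Pmvk ranged from -0.037 to 0.62, Mvd from -0.29 to 0.056 and Stard4 from -0.17 to 0.59, and in iMac against MEF Pmvk ranged from -0.42 to 0.16. In iMac against MCC, Elovl5 was -0.078 with library totals, and with 1 library left out Elovl5 ranged from -0.034 to 0.15, Insig2 from -0.23 to 0.068, Scd1 from -2.39 to 0.053, Scd2 from -0.24 to 0.0084 and Ebp from -0.099 to 0.0094. The sterol minus fatty-acid difference of medians ranged, with 1 library left out, from -0.44 to -0.27 in MCC against MEF, -1.15 to -0.85 in iMac against MEF and -0.61 to -0.33 in iMac against MCC. Library totals without scaling moved the median of all genes in iMac against MCC from -0.02 to -0.16.

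The labels link libraries of different groups only by a replicate number and state no pairing. Deviations of library 1 from its group mean correlated across genes at 0.13 for MEF and MCC, -0.0069 for MEF and iMac and 0.0023 for MCC and iMac. With 2 libraries a group, these values cannot settle whether equal-numbered libraries were handled together. With the replicate block, all-gene calls were 9022 in MCC against MEF, 9908 in iMac against MEF and 0 in iMac against MCC, and member calls were 13 sterol, 4 regulator and 8 fatty-acid genes, then 17, 6 and 10, then 0. Depth limits the low genes most: Fdps had 34 and 31 counts in the iMac libraries.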
